A study of Homo sapiens with 6 samples.

Results

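The 10 genes described here, TGFB1, TGFBR1, TGFBR2, SMAD2, SMAD3, SMAD4, SMAD7, SKIL, BMP4 and ID1, belong to the TGF-beta and BMP signalling pathway. They were picked by symbol from the 58302 genes of the NAT10 RIP-seq table, each symbol matched 1 gene, and all 10 had an Input level of at least 1 FPKM in both cell lines. The study asked which transcripts NAT10, the enzyme that writes N4-acetylcytidine (ac4C) on RNA, binds and acetylates in colorectal cancer cells. It used SW480 and DLD-1, both established human lines grown from colorectal adenocarcinomas, labelled wild type and given no treatment. From each line came 1 library of RNA co-precipitated with NAT10 (RIP), 1 Input library and 1 library enriched with an antibody against ac4C (acRIP), so each of the 6 groups held 1 library. No difference below has a replicate check, no test between groups was possible, and the 95% intervals given cover counting error alone.

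In this pathway a dimeric ligand brings together a type II and a type I receptor kinase, which phosphorylate receptor SMADs. SMAD2 and SMAD3 serve the TGF-beta branch and SMAD1, SMAD5 and SMAD9 the BMP branch. Either kind joins SMAD4, enters the nucleus and acts on target genes, ID1 being one of the BMP branch, while SMAD7 and SKIL feed back to damp the signal. In the intestine TGF-beta holds back the growth of epithelial cells, BMP signals favour their maturation towards the surface, and colorectal tumours often lose parts of both branches.

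The libraries were checked against their labels before the genes were read. Across 16278 protein-coding genes, Pearson's r between RIP labelled SW480 and the Input of the other label was 0.945, against 0.872 for the Input of its own label. For RIP labelled DLD-1 the values were 0.951 and 0.857. These are correlations across genes, which are not independent replicates, and they are given as a description. The Inputs of the acRIP table followed the Inputs of the RIP table, at 0.962 for SW480 and 0.957 for DLD-1. The labels name 1 Input sample per line, and whether both tables were made from the same Input library is not stated. Their likeness is therefore no replicate check. VIM, the intermediate filament vimentin, which marks the mesenchymal features known of SW480, had a RIP level of 128 FPKM under the label SW480 and 0.80 under DLD-1, but an Input level of 0.077 under SW480 and 11.1 under DLD-1. In the acRIP-table Inputs VIM was at 0.088 under SW480 and 51.2 under DLD-1. The ac4C peak list labelled SW480 held 1 peak on VIM and the list labelled DLD-1 held 0. ZEB1, the other gene examined for mesenchymal features of SW480, had 0 peaks in both lists. Of the 199 genes at least 8-fold higher in both Inputs labelled DLD-1, 43 hosted a peak in the list labelled SW480 and 26 in the one labelled DLD-1, and of the 134 genes higher in both Inputs labelled SW480, 11 and 19 did. Groups were kept as labelled, every library is called by its label, and each RIP value is given against the Input of both labels. Whether the Inputs or the immunoprecipitated libraries carry the other line's label was not tested, and a difference between lines cannot be told apart from it. All 7 epithelial markers examined, among them EPCAM and KRT18, were above 0 in every expression column, and 5 markers of leukocytes, endothelium, fibroblasts and macrophages summed to at most 0.546 FPKM. VIL1 was the lowest of the 7, at 0.26 FPKM in the Input labelled DLD-1 and 0.69 in RIP labelled DLD-1. The highest single value of the 5 other markers was 0.38 FPKM.

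BMP4, ID1, SMAD7 and SMAD4 moved together across the libraries, and TGFB1 and SMAD3 moved the other way. The first 4 were higher in the Input labelled SW480 than in the Input labelled DLD-1 and higher in the RIP library labelled DLD-1 than in the one labelled SW480. TGFBR1, TGFBR2, SMAD2 and SKIL differed by less than 2-fold between labels in the Inputs and in the RIP libraries. TGFBR2 ran in the direction of BMP4 in both. SMAD3 and SMAD4 were within 2-fold too once 1 FPKM was added to each level. Such crossing was common: for 64.1% of 12324 expressed genes both Input tables differed one way between labels and the RIP libraries the other way. In bulk samples such as these, fewer cells with a transcript and less transcript per cell cannot be told apart.

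**Figure D1:**
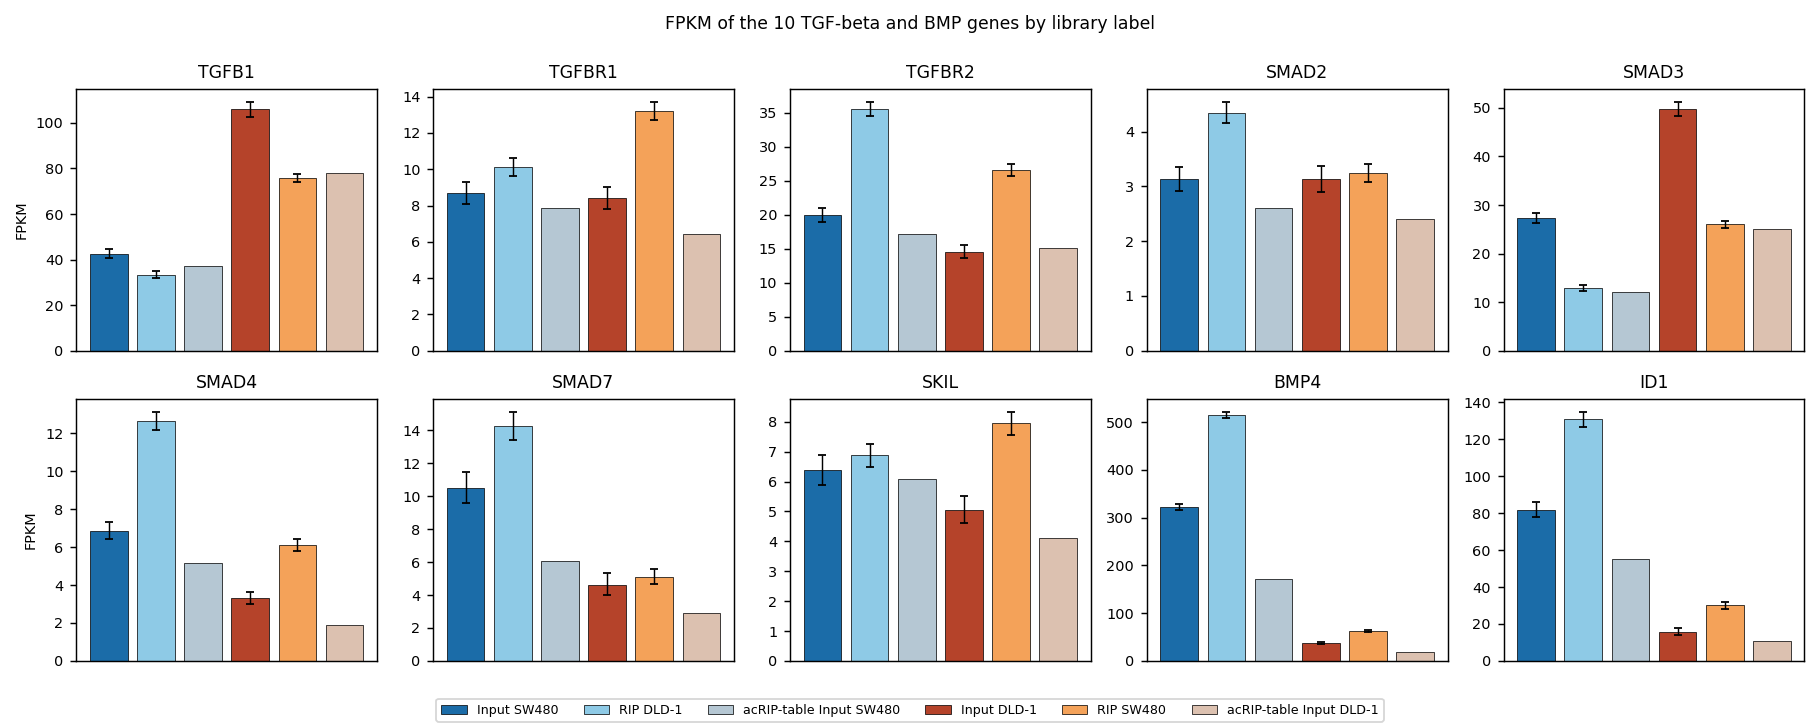
FPKM, reads scaled to transcript length and library depth, of each of the 10 genes in the 4 libraries of the RIP table and the 2 Inputs of the acRIP table, 1 bar per expression column with a linear axis from 0 for each gene. Error bars are 95% counting intervals, which the acRIP table does not give. BMP4 reached 515 FPKM in the RIP library labelled DLD-1 against 61.9 in the one labelled SW480, while TGFB1 was at 33.4 against 75.7.

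The 250 bases before the RefSeq start of 4 of these genes are shown to set the members that moved in opposite directions side by side, with SMAD7 and ID1 from the first set and TGFB1 and SMAD3 from the second. All are GRCh38.p14, written 5′ to 3′ on the gene's strand. Capitals mark CAGAC on either strand (CAGAC or GTCTG), which holds the core that SMAD3 and SMAD4 bind, and GGCGCC, a GC-rich site that SMADs also bind. Positions count back from the base before the start.
SMAD7 (chr18:48950966-48951215, minus strand): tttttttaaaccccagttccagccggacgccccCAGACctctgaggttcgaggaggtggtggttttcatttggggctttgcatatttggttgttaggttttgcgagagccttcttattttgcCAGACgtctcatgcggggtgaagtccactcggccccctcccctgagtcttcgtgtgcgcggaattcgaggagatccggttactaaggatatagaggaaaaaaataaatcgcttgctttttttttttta
ID1 (chr20:31605039-31605288, plus strand): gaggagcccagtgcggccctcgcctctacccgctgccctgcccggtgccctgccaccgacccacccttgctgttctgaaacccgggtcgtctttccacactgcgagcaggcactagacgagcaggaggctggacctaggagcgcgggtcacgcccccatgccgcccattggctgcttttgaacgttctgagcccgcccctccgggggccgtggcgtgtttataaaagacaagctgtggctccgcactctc
TGFB1 (chr19:41353923-41354172, minus strand): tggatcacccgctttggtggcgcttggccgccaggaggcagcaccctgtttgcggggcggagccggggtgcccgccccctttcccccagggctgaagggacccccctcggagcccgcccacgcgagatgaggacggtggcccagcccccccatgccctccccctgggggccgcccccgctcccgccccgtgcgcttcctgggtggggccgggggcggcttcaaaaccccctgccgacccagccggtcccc
SMAD3 (chr15:67065352-67065601, plus strand): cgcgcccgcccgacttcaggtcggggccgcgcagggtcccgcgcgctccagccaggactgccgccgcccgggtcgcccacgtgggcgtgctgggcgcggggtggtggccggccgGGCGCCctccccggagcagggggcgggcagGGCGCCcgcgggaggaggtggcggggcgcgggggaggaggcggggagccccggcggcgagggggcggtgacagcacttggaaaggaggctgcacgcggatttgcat
SMAD7 held CAGAC 2 times, at -217 and -128, and SMAD3 held GGCGCC 2 times, at -136 and -106. ID1 and TGFB1 held neither. Of the 9 members whose listed start matched the 5′ end of the RefSeq gene (BMP4 did not), 2 held CAGAC, SMAD7 and SKIL, against 38.0% of all 35116 promoters of this length. GGCGCC occurred in 4, SMAD2, SMAD3, SMAD4 and SKIL, against 16.4%. These 4 windows held 68.4% to 80.8% G and C, and the share over all promoters was not matched for base composition. These matches are letters in a window and say nothing of what is bound there.

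Among the ligands, BMP4 (chr14:53949736-53956891), a secreted factor of the BMP branch, differed most. Its level was 322 FPKM in the Input labelled SW480 and 38.1 in the one labelled DLD-1, a log2 ratio of 3.04 (interval 2.95 to 3.14), and the acRIP-table Inputs gave 171 and 18.8. The RIP libraries ran the other way, with 61.9 FPKM for the label SW480 and 515 for the label DLD-1, from 3513 and 24878 reads. BMP4 therefore lay 5.20-fold below its Input in the label SW480 and 13.5-fold above it in the label DLD-1. Against the Input of the other label, the same RIP libraries were at log2 ratios of 0.68 (0.58 to 0.78) and 0.68 (0.64 to 0.71), near equal in both. TGFB1 (chr19:41330323-41353922), the ligand that gives the TGF-beta branch its name, had the reverse pattern. It was at 42.6 FPKM in the Input labelled SW480 and 106 in the one labelled DLD-1, with RIP levels of 75.7 and 33.4 for the labels in that order. The acRIP-table Inputs, at 37.0 and 78.2 FPKM, ordered the labels as the Inputs of the RIP table did. RIP over Input was 0.81 (0.74 to 0.89) on the log2 scale for the label SW480 and -1.64 (-1.71 to -1.56) for DLD-1, and with the Inputs exchanged it was -0.48 and -0.34, below 0 in both.

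The receptors moved less. TGFBR1 (chr9:99103647-99154192), the type I receptor kinase, was at 8.67 and 8.41 FPKM in the Inputs labelled SW480 and DLD-1, and its counting interval for the difference, -0.09 to 0.17 on the log2 scale, included 0. Its RIP levels were 13.2 and 10.1 FPKM, above both Inputs of the table. TGFBR2 (chr3:30606356-30694142), the type II receptor that binds the ligand first, was at 19.9 and 14.6 FPKM in the Inputs and at 26.5 and 35.6 in the RIP libraries, so that here too both RIP values lay above both Inputs. Against its own Input the ratio of TGFBR2 was 0.40 for the label SW480 and 1.23 for DLD-1, and against the other Input it was 0.82 and 0.81.

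The transducers split. SMAD3 (chr15:67065602-67195169), a receptor SMAD of the TGF-beta branch, was at 27.3 FPKM in the Input labelled SW480 and 49.8 in the one labelled DLD-1, and at 26.0 and 13.0 in the RIP libraries of those labels. It was the member with the lowest RIP level relative to Input in the label DLD-1, at -1.86 (-1.94 to -1.79), while in the label SW480 the ratio was -0.07 with an interval from -0.13 to 0.00. With the Inputs exchanged it was at -0.91 and -1.02. SMAD2 (chr18:47808957-47930872), its closest relative, was the least abundant member in all 4 libraries of the RIP table, at 3.24 and 4.35 FPKM in the RIP libraries and 3.13 in both Inputs. SMAD4 (chr18:51030213-51085042), the partner shared by both branches, was at 6.86 and 3.29 FPKM in the Inputs labelled SW480 and DLD-1 and at 6.12 and 12.7 in the RIP libraries. Its RIP-over-Input ratio was -0.14 (-0.25 to -0.04) for the label SW480 and 1.67 (1.55 to 1.79) for DLD-1, against 0.73 and 0.80 with the Inputs exchanged.

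Of the inhibitors, SMAD7 (chr18:48919853-48950965), which blocks the type I receptor, followed SMAD4 and BMP4. It was at 10.5 FPKM in the Input labelled SW480 and 4.63 in the one labelled DLD-1, and at 5.09 and 14.3 in the RIP libraries. These rest on 473, 193, 466 and 1109 reads, the fewest of any member, and the RIP-over-Input ratios were -0.91 (-1.08 to -0.75) and 1.44 (1.25 to 1.62). With the Inputs exchanged SMAD7 was at 0.11 (-0.09 to 0.31) and 0.41 (0.27 to 0.55). SKIL (chr3:170357715-170396849), a nuclear protein that represses SMAD targets, was at 6.37 and 5.03 FPKM in the Inputs and 7.95 and 6.88 in the RIP libraries, within 2-fold in every pair. SMAD2, SMAD4 and SMAD7 all lie on chromosome 18. The median of its 131 protein-coding genes, Input labelled SW480 over DLD-1, was 0.19 on the log2 scale in the RIP table and 0.22 in the acRIP table, against -0.03 and 0.03 over all chromosomes. The part of the chromosome in the differences of SMAD4 and SMAD7, at 0.87 and 1.03, was not tested, and SMAD2 differed by -0.00.

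ID1 (chr20:31605289-31606510), which binds and inactivates bHLH transcription factors and is a direct target of BMP signals, differed between labels in the same direction as BMP4. Whether the levels of the genes are linked was not tested. ID1 was at 81.9 FPKM in the Input labelled SW480 and 15.9 in the one labelled DLD-1, with 55.0 and 11.0 in the acRIP-table Inputs. The RIP libraries gave 30.1 for the label SW480 and 131 for DLD-1. ID1 thus lay 2.72-fold below its Input in the label SW480 and 8.25-fold above it in the label DLD-1, and 1.90-fold and 1.60-fold above the Input of the other label. The counting intervals of the ratios with the Inputs exchanged, 0.70 to 1.07 and 0.58 to 0.75 on the log2 scale, overlapped.

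**Figure D2:**
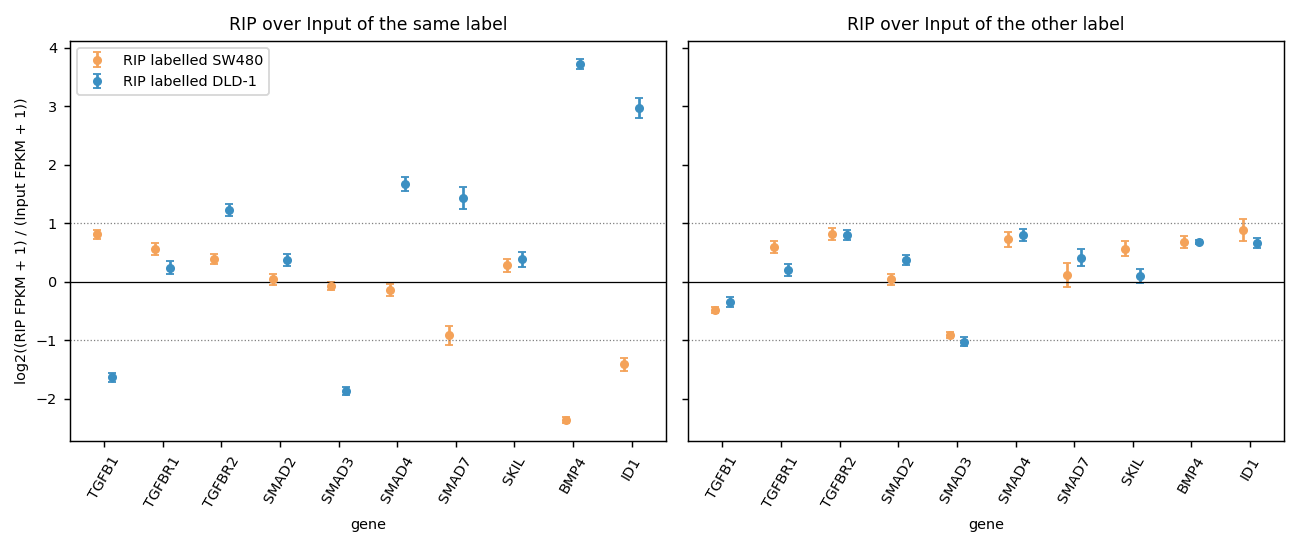
Log2 ratio of RIP FPKM to Input FPKM, 1 added to each, for the 10 genes, against the Input of the same label (left) and of the other label (right), with 95% counting intervals. Dotted lines mark 2-fold. With the same label BMP4 spans -2.36 to 3.72, and with the other label both of its points sit at 0.68.

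Counted over the members, 0 of 10 were at least 2-fold higher in RIP than in Input for the label SW480, where 15.6% of the 12324 genes with an Input of at least 1 FPKM in both labels were. In the same label 2 were at least 2-fold lower, BMP4 and ID1, against 16.0% of genes. SMAD7, at -0.91, was close to the rule. It passed with 0.1 added in place of 1, at -1.03, and when centred on protein-coding genes, at -1.09. For the label DLD-1, 5 were higher (TGFBR2, SMAD4, SMAD7, BMP4 and ID1) against 15.1%, and 2 lower (TGFB1 and SMAD3) against 19.2%. The median log2 ratio of the members was -0.01 and 0.81 in the labels SW480 and DLD-1, beside 0.05 and -0.05 over all genes. The sign of the ratio differed between labels for 5 members, TGFB1, SMAD4, SMAD7, BMP4 and ID1, a share near the 43.6% of all genes. Over the acRIP-table Input of the same label, scaled to the RIP table, the sign differed for 8 members, with SMAD2 (-0.19 and 0.18), SMAD3 (0.52 and -1.51) and SKIL (-0.16 and 0.10) added, against 44.8% of genes, and TGFBR2 in the label DLD-1 was no longer 2-fold higher, at 0.58.

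With the Inputs exchanged the spread of the members closed. The RIP library labelled SW480 had 0 members 2-fold higher than the Input labelled DLD-1 (9.24% of genes) and 0 lower (11.7%), with a median of 0.58 beside 0.02 over all genes. The RIP library labelled DLD-1 had 0 members 2-fold higher than the Input labelled SW480 (9.36%) and 1 lower, SMAD3 (11.8%), with a median of 0.39 beside -0.00. No member changed sign between the RIP libraries, where 18.3% of all genes did. In both RIP libraries 8 members lay above that Input (41.2% of genes), TGFBR1, TGFBR2, SMAD2, SMAD4, SMAD7, SKIL, BMP4 and ID1, and 2 below it (40.5%), TGFB1 and SMAD3. For SMAD2 and SMAD7 in the label SW480 and for SKIL in the label DLD-1 the counting interval included 0. Over the acRIP-table Input with the other line's label, scaled to the RIP table, the ratio fell on the other side of 0 for SMAD2 in RIP labelled SW480, at -0.15, and for TGFBR1 and SKIL in RIP labelled DLD-1, at -0.19 and -0.34.

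Between the Inputs, 3 members were at least 2-fold higher in the label SW480, BMP4, ID1 and SMAD7, against 7.25% of genes. TGFB1 alone was at least 2-fold lower (9.29%). The acRIP-table Inputs also gave 3 higher (9.52%), BMP4, ID1 and SMAD4, and 1 lower (9.60%), TGFB1. SMAD4 and SMAD7 were close to the rule in both. Without the added 1 SMAD4 was 2.08-fold and 2.75-fold higher in the RIP-table and acRIP-table Inputs, and SMAD7 2.26-fold and 2.11-fold. The RIP libraries gave the reverse, with TGFB1 higher in the label SW480 (7.60%) and BMP4, ID1 and SMAD7 lower (6.17%). For 7 members, TGFB1, TGFBR2, SMAD3, SMAD4, SMAD7, BMP4 and ID1, both Input tables differed one way between labels and the RIP libraries the other way, which 64.1% of all genes also did.

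**Figure D3:**
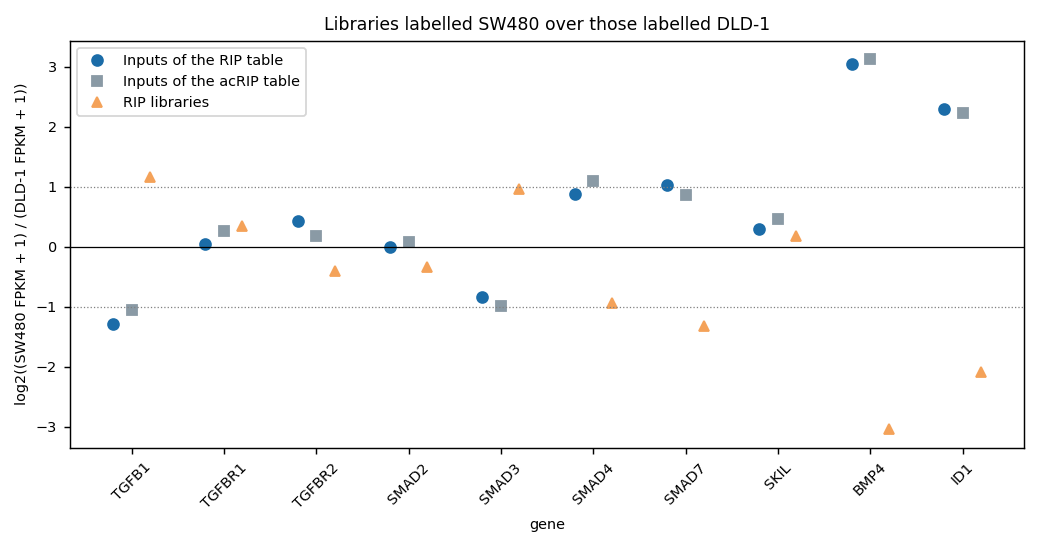
Log2 ratio of the library labelled SW480 over that labelled DLD-1 (FPKM, 1 added to each) for the 10 genes, in the Inputs of both tables and in the RIP libraries, with dotted lines at 2-fold. For BMP4 the Inputs give 3.04 and 3.12 and the RIP libraries -3.04.

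FPKM corrects for transcript length, so the members can be ordered within a library. BMP4 was the most abundant in the Input labelled SW480, followed by ID1 and TGFB1, and the RIP library labelled DLD-1 began with the same pair, BMP4 and ID1. In the Input labelled DLD-1 the order began with TGFB1, SMAD3 and BMP4, and in the RIP library labelled SW480 with TGFB1, BMP4 and ID1. Neighbours whose counting intervals overlapped were SMAD4 and SKIL in the Input labelled SW480, TGFBR2 and SMAD3 in the RIP library labelled SW480, and ID1 and TGFBR2, SKIL and SMAD7, and SMAD4 and SMAD2 in the Input labelled DLD-1. In the RIP library labelled DLD-1 they were TGFBR2 and TGFB1, and the run of SMAD7, SMAD3 and SMAD4.

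The ac4C peaks, called on each acRIP library over its Input, fell on 2 members in one list and on 5 in the other. The list labelled SW480 had 9536 peaks with a median fold over Input of 19.5, and the list labelled DLD-1 had 13964 with a median of 14.6. In the first, 2 members hosted a peak, ID1 and SMAD3, against 44.2% of the 12324 genes. In the second 5 did, TGFBR2, SMAD2, SMAD3, SMAD7 and ID1, against 48.8%. TGFB1, TGFBR1, SMAD4, SKIL and BMP4 hosted 0 in both, although BMP4 had the highest Input level of all members in the label SW480.

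ID1 was the member with a peak at the same place in both lists, where 27.6% of genes had one. In the list labelled SW480 its peak ran over 822 bases, chr20:31605694-31606515, at 156-fold over Input, above 92.5% of that list. In the list labelled DLD-1 it ran over 1145 bases, chr20:31605371-31606515, at 477-fold, above 99.6% of the list, and covered 93.3% of the RefSeq gene span. Both were annotated to the 3′-UTR, although the longer one began near the 5′ end of the gene and the shorter one covered 66.9% of its span. Within the peaks the files list places that match CNNCNNCNNCNN, a pattern of 12 bases with 4 regularly spaced C in which N is any base. These folds are over the Input of the acRIP table, to which the doubt on labels extends. ID1 was at 55.0 and 11.0 FPKM in those Inputs, and no fold over the Input of the other label was computed. The shorter peak held 5 such sites and the longer 8, and all 5 were among the 8.

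TGFBR2 carried 4 peaks in the list labelled DLD-1 and 0 in the one labelled SW480. Of these, 3 lay in the 3′-UTR, at chr3:30692405-30692764 (29.9-fold), chr3:30693004-30693333 (51.9-fold) and chr3:30693453-30693723 (9.44-fold). The fourth, at 14.2-fold, was annotated to the coding sequence and split over 3 blocks between chr3:30606891 and 30644765. SMAD3 had a 3′-UTR peak in each list but at different places, chr15:67194146-67194416 at 31.2-fold for the label SW480 and chr15:67193217-67193397 at 11.8-fold for DLD-1. Each held 1 site of the pattern. SMAD7 had 1 peak of 179 bases in its 3′-UTR, chr18:48920925-48921103, at 10.6-fold with 0 sites, and SMAD2 had 1 in its coding sequence, in 2 blocks between chr18:47848617 and 47851323, at 4.92-fold, above 8.39% of the list. Each of these is 1 call in 1 library, and the list labelled DLD-1 is the longer of the pair.

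**Figure D4:**
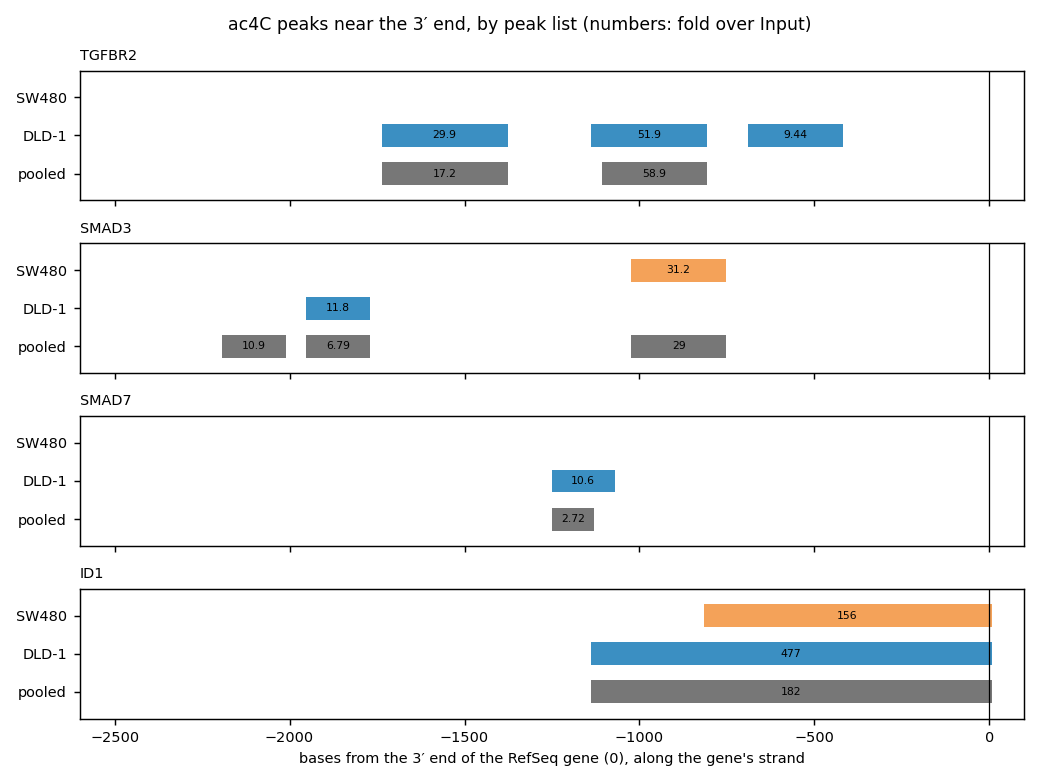
Positions of ac4C peaks near the 3′ end of TGFBR2, SMAD3, SMAD7 and ID1, in bases before the 3′ end of the RefSeq gene along its strand, for the lists labelled SW480 and DLD-1 and the list called on both together. Numbers are fold over Input, and peaks in coding sequence farther upstream are not drawn. The ID1 bars (156 and 477) share their 3′ end, and the SMAD3 bars of the lines (31.2 and 11.8) do not overlap.

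The rest of the pathway was read from a list of 59 genes in 5 role groups, of which 40 passed the Input level of 1 FPKM in both labels. RIP was at least 2-fold above Input for 10 and below for 5 in the label SW480, and for 9 and 9 in the label DLD-1, beside 15.6%, 16.0%, 15.1% and 19.2% of all genes in that order. With the Inputs exchanged the counts were 2 and 1 for the RIP library labelled SW480 and 5 and 2 for that labelled DLD-1, beside 9.24%, 11.7%, 9.36% and 11.8%. Between the Inputs, 7 of the 40 were 2-fold higher in the label SW480 and 9 lower (7.25% and 9.29% of all genes, the shares beside which the counts per group below stand), and between the RIP libraries 7 were higher and 6 lower (7.60% and 6.17%). A peak was hosted by 21 (52.5%) in the list labelled SW480, by 22 (55.0%) in that of DLD-1, and at the same place in both by 11 (27.5%), beside 44.2%, 48.8% and 27.6% of all genes.

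Ligands and proteins of the matrix that hold them gave 2 higher and 4 lower of 9 between Inputs. GDF15, a stress-induced member of the ligand superfamily, was at 304 FPKM in the Input labelled SW480 and 820 in the one labelled DLD-1, with RIP levels of 828 and 405, ordered as TGFB1 was. LTBP3, which binds latent TGF-beta, was at 17.7 and 79.8 in the Inputs and 35.6 and 6.59 in the RIP libraries, and it was the only one of the 40 at least 2-fold below the Input of the other label in both RIP libraries, at -1.14 and -1.30. TGFBI, a matrix protein induced by TGF-beta, was within 2-fold in each of these comparisons.

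Of 11 further receptors and receptor partners, 1 was 2-fold higher and 1 lower between Inputs. ACVR1 and BMPR2, a type I and a type II receptor used by BMPs, differed between Inputs by -0.59 and -0.54 on the log2 scale. FKBP1A, the FK506-binding protein that keeps type I receptors quiet, was above both Inputs in RIP, at 99.0 and 58.4 FPKM against 27.0 and 31.8, and its log2 ratio to the Input of the other label was 1.61 and 1.08. Among the 4 transducers measured, SMAD5, MAP3K7 and TAB1 included, 0 were 2-fold different between Inputs. SMAD5, a receptor SMAD of the BMP branch, was at 23.1 and 25.3 FPKM in the Inputs and 23.1 and 23.0 in RIP, the flattest of the genes named here.

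Of 12 inhibitors 1 was 2-fold higher and 3 lower between Inputs. TGIF1, a nuclear repressor of SMAD targets, was the higher one, at 46.9 and 20.3 FPKM, with 38.1 and 80.9 in RIP. STRAP, which steadies SMAD7 at the receptor, was at 112 and 87.7 FPKM in RIP against 38.4 and 44.2 in Input, 1.32 and 1.17 on the log2 scale over the Input of the other label. SKI, the relative of SKIL, lay below both Inputs in both RIP libraries, with 11.6 and 11.0 FPKM against 24.8 and 20.8.

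Targets gave 3 higher and 1 lower of 4 between Inputs. ID2, a relative of ID1 induced by BMPs, was at 77.6 and 28.8 FPKM in the Inputs and 38.7 and 76.0 in RIP. ID3, named after its values were seen, was at 49.5 and 9.30 in the Inputs and 7.74 and 69.6 in RIP. CDKN1A, the cell cycle inhibitor p21 that TGF-beta induces, was ordered as TGFB1 was, at 11.7 and 89.1 FPKM in the Inputs and 167 and 26.8 in RIP. A link between the levels of targets and ligands was not tested.

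**Figure D5:**
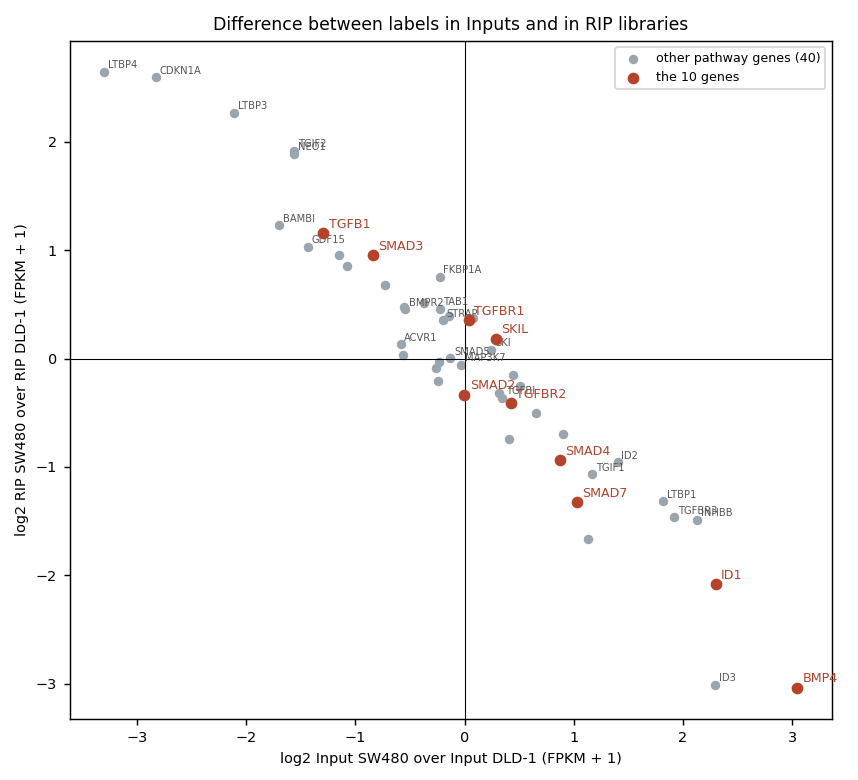
Log2 ratio of the label SW480 over DLD-1 in the Inputs (horizontal) and in the RIP libraries (vertical), FPKM with 1 added, for the 10 genes and 40 other genes of the pathway. BMP4 (3.04, -3.04) and CDKN1A (-2.82, 2.60) lie in opposite corners.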

How the data were processed

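NAT10 RIP and acRIP libraries of SW480 and DLD-1 cells were analysed as the authors deposited them. The RIP table gives FPKM per gene, per the file headers, and the acRIP table, whose unit is not named, was read as FPKM. Beside them are 3 ratio columns, the authors' own IP over Input comparison, which were not used. The deposited peak lists give a fold ratio over Input, a p-value in a column called score, and the log10 of the p-value and of the FDR. The FDR cells with spreadsheet errors (450 for SW480, 328 for DLD-1 and 640 in the pooled list) were taken as below the threshold. The submitters' processing notes name cutadapt 2.5, HISAT2 2.1.0 and GRCh38. The counting tool, peak caller and strand setting are not given in the sources used here. The study's methods state normalization to input for RIP, its results text mentions an IgG group, and the table names Input.

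Reads were recovered from the FPKM steps: of 2000 genes checked, 1982 gave whole numbers (tolerance 0.01, multiples up to 6000). Genes needed at least 2 libraries above 0, and with only 2 some multiple always fits. This share is therefore no check that the true reads were recovered. The recovered reads are the smallest whole numbers that fit, so the counting intervals are upper limits. Relative depth was 1 for the RIP library labelled SW480, 0.850 for RIP labelled DLD-1, and 0.493 and 0.456 for the Inputs labelled SW480 and DLD-1. The total depth is unknown. The recovery was tested on simulated data. Ratios are log2((FPKM + 1)/(FPKM + 1)), which understates changes of low genes, and intervals cover counting error only. Calls used a 2-fold rule over the 12324 genes with Input FPKM of at least 1 in both labels. Peaks shared a place if they overlapped by at least 1 base on the same strand. Positions are printed from 1. All 10 members are named, and of each role group the 3 other genes with the highest mean Input, of which 1 is not reported here. The members and lists were chosen with earlier results of these data known. Promoter sequences are from RefSeq, GRCh38.p14, and peak sequences were not used here. Python 3.11.15, pandas 2.3.3, numpy 2.4.6 and scipy 1.17.1 were used.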

Additional observations from a re-analysis of the deposited data

Results flagged for a closer look

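The log2 ratio of RIP to Input had opposite signs in the 2 labels for 5 members, a share near the 43.6% of all genes. With the Inputs exchanged it had opposite signs for 0 members (18.3% of all genes). None of these differences was tested, since each label had 1 library of a kind. The label SW480 minus the label DLD-1 came to 2.45 for TGFB1, where RIP was above Input in SW480 and below it in DLD-1. It came to -1.81 for SMAD4, -2.35 for SMAD7, -6.08 for BMP4 and -4.38 for ID1, where RIP was below Input in SW480 and above it in DLD-1. The doubt on labels extends to these values, and a difference between lines cannot be told apart from it.

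The peak list called on both lines together was not used in the comparisons and held 2 member peaks that neither line's list held. One lay on the coding sequence of TGFB1, chr19:41341920-41342100, at 6.49-fold over Input with a caller p of 1.6e-07. The other lay on the 3′-UTR of SMAD3, chr15:67192977-67193157, at 10.9-fold with a caller p of 0.0028. This joint list held 0 peaks on SMAD2 and 3 on TGFBR2, against 1 and 4 in the list labelled DLD-1. Its SMAD7 peak was at 2.72-fold, above 2.67% of the joint list, against 10.6-fold in the list labelled DLD-1. The TGFBR2 coding-sequence peak was at 3.92-fold (14.2 in the list labelled DLD-1), and its 3′-UTR peaks at 17.2-fold (29.9) and 58.9-fold (51.9).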

How the results depend on the processing

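No paired analysis was possible because each group held 1 library and the labels carry no replicate numbers, and leaving out a replicate was not possible for the same reason. Beside the Input of the other label, used in the report, alternatives were a pseudocount of 0.1, centring on protein-coding genes, a 1.5-fold rule, the acRIP-table Inputs scaled to the RIP table, and stricter peak settings. The median log2 ratio of the members for RIP labelled SW480 was -0.19 when centred, 0.58 with the RIP-table Inputs exchanged, and -0.18 and 0.23 with the acRIP-table Inputs, kept and exchanged. For RIP labelled DLD-1 the values were 0.39 with the Inputs exchanged, and 0.38 and 0.30 with the acRIP-table Inputs. In the label SW480, 1 member was over 1.5-fold higher (28.3% of all genes) and 1 was 2-fold higher over the exchanged acRIP-table Input (11.5%), and 0 were 2-fold lower over either exchanged Input (11.7% and 10.4%). In the label DLD-1, with the exchanged Input and its acRIP-table counterpart, 0 and 1 were higher (9.36% and 12.0%) and 1 and 0 lower (11.8% and 10.3%). In RIP labelled SW480, 5 members turned over the exchanged Input and its acRIP-table counterpart: BMP4 (0.68 and 1.07), ID1 (0.88 and 0.79), SMAD4 (0.73 and 0.87) and SMAD7 (0.11 and 0.16) to above Input, TGFB1 (-0.48 and -0.66) to below it. The share of all genes that turned so is not given here, so nothing particular to the members can be read from this count. With RIP libraries in place of Inputs, the difference between labels turned for 7 members, TGFB1 (1.16), TGFBR2 (-0.41), SMAD3 (0.95), SMAD4 (-0.94), SMAD7 (-1.32), BMP4 (-3.04) and ID1 (-2.08). For 64.1% of all genes both Input tables differed one way and the RIP libraries the other way. The median of the members was then -0.37, and 1 member was higher (7.60% of genes) and 3 lower (6.17%). Between Inputs 2 members were over 1.5-fold lower (20.5% of genes). Keeping peaks with a p-value below their list's median left 1 member host in SW480 and 2 in DLD-1 (26.3% and 29.4% of genes). A further 35 summary values stayed within 1.5 times the reported count or within the counting interval, and 6 could not change, since all members pass the level limit. The cause of these shifts was not tested.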
